A study of Mus musculus with 3 samples.

Results

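The cells described here are 136 segmented cells of mouse embryos at embryonic day 9.5 (E9.5), chosen by their counts of Tubb2b and Fabp7 and given the working name neural tube-type cells. They are 136 of 7164 kept cells of that stage and of 203079 kept cells in the whole series, where a kept cell has at least 10 counts over the genes of the panel. A member has at least 2 counts of Tubb2b and Fabp7 together, under 2 counts of Tcf15, under 2 counts of Tbx20 and under 3 counts over Pecam1, Cdh5, Kdr, Emcn and Cldn5. These 9 genes chose the members, so their values are a description and no test is made on them.

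The neural tube is the epithelium along the back of the embryo that gives rise to the brain and spinal cord. At this stage its cells divide as neuroepithelial progenitors, and the first neurons leave the cycle at its outer edge. Tubb2b encodes a beta-tubulin of neural progenitors and young neurons, and Fabp7 a lipid carrier protein typical of radial glia. Tcf15 marks paraxial mesoderm, which flanks the neural tube, Tbx20 the heart, and the other 5 genes of the rule mark endothelium.

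The series holds sagittal sections of wild-type embryos, 1 from each of 2 embryos at E9.5 and 1 from an embryo at E15.5, read by MERFISH, which counts single RNA molecules in place. No strain, sex or treatment is given in the labels. The panel has 296 genes with counts and was built around blood vessels, so few genes of the nervous system are on it. E9.5 section 1 held 830 kept cells with a median of 61 counts and section 2 held 6334 with a median of 128, and the 2 sections shared 0 cell identifiers.

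Section 1 held 10 members of 830 kept cells, 1.20% (exact Clopper-Pearson 95% interval 0.579 to 2.20%). Section 2 held 126 of 6334, 1.99% (1.66 to 2.36%). The members carried 1477 counts in section 1 and 42580 in section 2, against 67095 and 992150 counts in the other kept cells. These intervals, and all intervals on ratios of counts below, cover counting error only. Section 1 therefore limits everything that needs both embryos, since a single count there is 0.677 per 1000 panel counts, the unit of all levels given here. In section 2 the limits on the other genes removed 51 of 177 cells that passed the Tubb2b and Fabp7 gate, 40 of them by Tbx20, 15 by the endothelial genes and 5 by Tcf15.

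Tubb2b had 18 counts in the members of section 1 and 265 in those of section 2, which is 12.2 and 6.22 per 1000, against 0.641 and 0.522 per 1000 in the other kept cells. Fabp7 had 2 and 95 counts in the members, 1.35 and 2.23 per 1000, against 0.119 and 0.149 per 1000. All 10 members of section 1 sat at the threshold with 2 gate counts, 8 of them with Tubb2b alone. In section 2, 75 members had 2 gate counts, 27 had 3 and 24 had 4 or more, with a highest value of 10. Both genes were seen in 55 of these members, Tubb2b alone in 63 and Fabp7 alone in 8. Just outside the threshold, 51 and 553 cells had 1 count of the gate genes.

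The panel gives the label little to stand on. Blank codes, which belong to no gene, show how often a gate of 2 genes is passed by wrong reads: over 171 pairs of blank codes the same gate and limits let through a median of 1 cell in section 1 and 8 in section 2, with a maximum of 6 and 49. So 0 of the 171 pairs reached the member number of either section. The neural markers outside the rule are Stmn2, a protein of growing axons, Slc1a3, a glutamate transporter of radial glia, and Scn3a, a sodium channel subunit of young neurons. They had 0 counts in the members of section 1 and 40 counts in section 2, which is 0 and 0.939 per 1000 together, against 1.55 and 1.23 per 1000 in the other kept cells. Stmn2 was seen in 10 of 126 members of section 2 (7.94%), Slc1a3 in 11 and Scn3a in 11 (8.73% each). In the other kept cells of that section they were seen in 7.39%, 7.52% and 1.79%. By share of panel counts, Scn3a was higher in these members (log2 fold 1.48), while Stmn2 (-0.81) and Slc1a3 (-0.93) were lower. In the members of section 2 Stmn2 and Scn3a each stood at 0.329 per 1000, the level of the highest blank code there. These markers do not bear out the name, and the cells are called Tubb2b/Fabp7 cells from here on.

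Tubb2b/Fabp7 cells lay together. Around a Tubb2b/Fabp7 cell, 7.0% and 20.3% of the 10 nearest kept cells were of the same kind in sections 1 and 2, against 1.15% and 1.64% around the other kept cells. At least 1 such neighbour was present for 5 of 10 and 89 of 126 Tubb2b/Fabp7 cells (70.6% in section 2), and for 69 and 604 of the other kept cells (9.73% in section 2). With 20 neighbours the mean shares were 7.0% and 18.97%, against 1.07% and 1.66%. The 2 embryos pointed the same way, with the difference far larger in section 2.

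In section 2, 80 of the 126 cells fell into 4 patches, defined after seeing the data and by position alone, as groups of at least 10 members joined by steps of at most 50 micrometres. Patch 1 held 26 cells over 79.3 by 226 micrometres, patch 2 held 25 over 94.6 by 106, patch 3 held 18 over 144 by 115 and patch 4 held 11 over 96.9 by 201. The other 46 cells of section 2 and all 10 of section 1 lay in no patch. On the map of the sections, patches 1, 2 and 3 lie at the left and upper left border of the kept cells of section 2, and the cells of no patch are strewn across it. The kept cells of section 1 form a narrow strip and those of section 2 end at straight left and lower edges, so neither map holds a whole embryo.

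**Figure D1:**
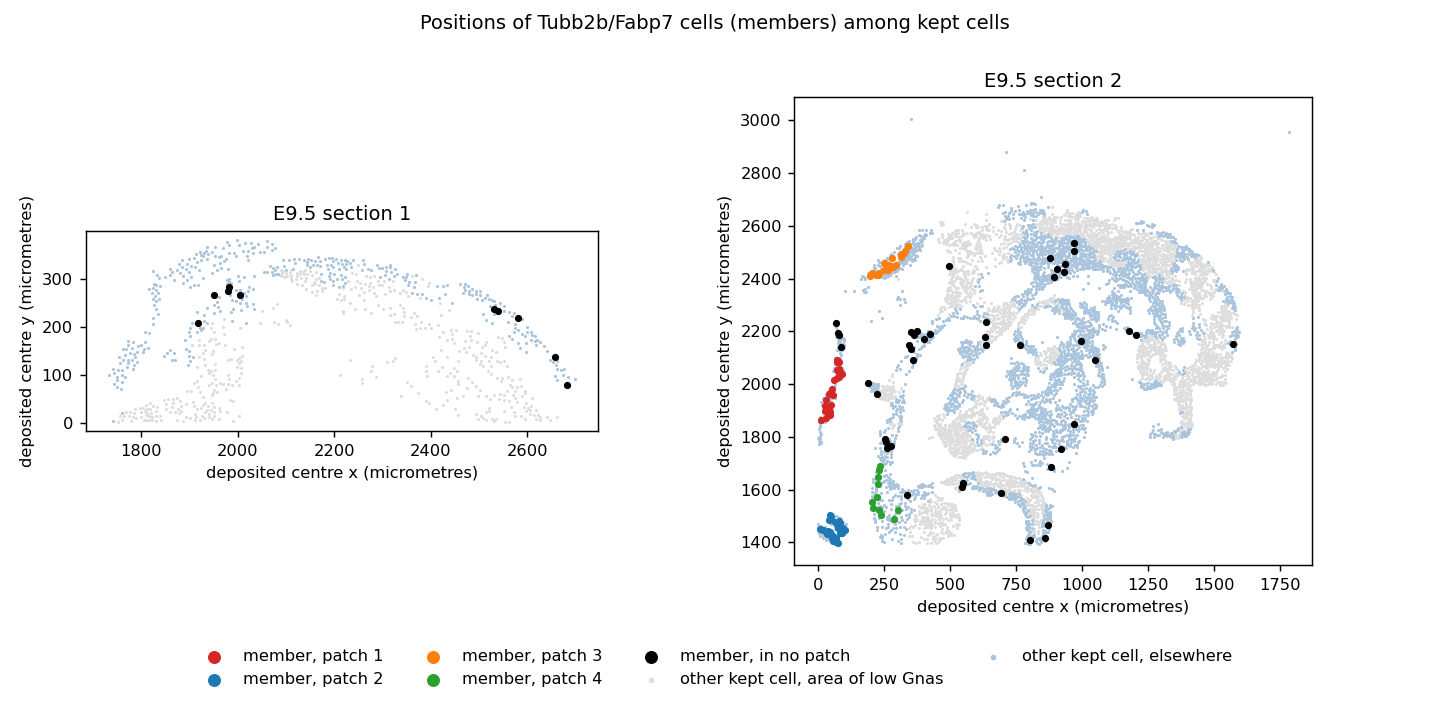
Deposited cell centres of both E9.5 sections in micrometres. Large points are the 10 and 126 Tubb2b/Fabp7 cells, coloured by patch in section 2 or black where they lie in no patch, and small points are the other kept cells, grey in areas of low Gnas and light blue elsewhere. Patches 1, 2 and 3, with 26, 25 and 18 cells, lie at the left and upper left border of the kept cells.

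They were also larger and deeper cells. The median Tubb2b/Fabp7 cell held 136.5 counts in section 1 and 261.5 in section 2, against 60 and 126 in the other kept cells. It showed 64.5 and 83 genes, against 31 and 52. Median volume was 933 and 1001 cubic micrometres, against 709 and 737, and the counts per 100 cubic micrometres were 16.7 and 26.1, against 10.01 and 18.6. The PolyT stain per volume was higher too, at 776268 and 869215, against 601390 and 646953, while the DAPI stain per volume was lower in section 1 (888481 against 1184270) and higher in section 2 (1101810 against 991317). A gate on summed counts favours cells with many counts, and how much of the gap in depth comes with the gate was not tested.

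Nearly all members lay outside areas in which Gnas, the gene of a stimulatory G protein subunit found in most cells, was read at under 0.5 times its share of counts over both sections, taken over a cell and its 20 nearest kept cells. Such areas held 0 of 10 and 4 of 126 Tubb2b/Fabp7 cells (0% and 3.17%), against 442 of 820 and 2862 of 6208 of the other kept cells (53.9% and 46.1%). The neighbour shares around the other kept cells, 1.15% and 1.64%, include cells in these areas. Outside these areas, Tubb2b/Fabp7 cells were 2.58% and 3.52% of kept cells, against 7.0% and 20.3% of the neighbours of a Tubb2b/Fabp7 cell. The median count of the other kept cells was 55 inside these areas and 70 outside in section 1, and 111.5 and 140 in section 2. Values without these areas are given beside the calls, the named genes that turn direction or move by over 1.5 times, and the lists whose sums turn direction. Lists that move without turning are not all covered.

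Against the other kept cells, Tubb2b/Fabp7 cells held more RNA of Ranbp1 and Cenpf, among other genes, and less of Gata5, Hand2, Gata4, Cxcl12 and Dlk1. Counts were summed per section and kind of cell, and 286 genes were tested with edgeR's quasi-likelihood test with the section as a block, called at a Benjamini-Hochberg adjusted p below 0.05. It called 3 genes higher (1.05% of those tested) and 5 lower (1.75%). With 4 sums the test has 1 residual degree of freedom. Without the areas of low Gnas it called 0 genes (24 at an unadjusted p below 0.05, lowest adjusted p 0.311), while all 8 genes kept their sign.

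Ranbp1, a regulator of the Ran cycle in nuclear transport and spindle assembly, had 28.4 and 16.5 per 1000, against 5.96 and 5.54 per 1000 in the other kept cells. Its log2 fold was 1.89 ± 0.53 (SE; edgeR adjusted p = 0.0285). Cenpf, a kinetochore protein of dividing cells, had 15.6 and 10.7 per 1000, against 3.86 and 4.20 per 1000, a log2 fold of 1.65 ± 0.50 (edgeR adjusted p = 0.0376). Both were spread over the members rather than held by a few cells: Ranbp1 was seen in 9 of 10 and 117 of 126 members and Cenpf in 8 and 101. Outside the areas of low Gnas the other kept cells themselves held more, 9.38 and 8.25 per 1000 of Ranbp1 and 6.17 and 6.16 per 1000 of Cenpf, and the log2 folds were 1.07 and 0.84.

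Cenpf was the 1 gene called among 10 tested genes of the mitosis list (Cdk1, Aurka, Cdc20 and others), 8 of which had a positive log2 fold. Over all 286 genes, 1.05% were called higher and 126 had a positive log2 fold. The median log2 fold of the list was 0.26, against -0.14 over all 286 genes. By level, 1 of the 10 mitosis genes was lower in Tubb2b/Fabp7 cells in section 1 and 5 were lower in section 2. The summed level of the mitosis genes was 102 and 76.2 per 1000 in Tubb2b/Fabp7 cells, against 59.8 and 70.7 per 1000 in the other kept cells, so the gap was wide in section 1 and narrow in section 2. None of the 4 tested genes of DNA synthesis was called, and their sums were 18.96 and 12.99 per 1000, against 14.4 and 12.8 per 1000.

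By size and with no test, counting genes that were 2-fold or more apart the same way in both embryos, with a floor of 3 counts on the lower side, 8 genes were higher (2.8% of 286) and 4 lower (1.4%). Section 1 alone gave 39 higher (13.6%) and 16 lower (5.59%), and section 2 alone 29 higher (10.1%) and 64 lower (22.4%). Among the higher ones that edgeR did not call were Nr1h2, Mfsd2a, Jag1, Slc7a5 and Gnai2. Without the areas of low Gnas, 4 genes were at least 2-fold higher in both embryos.

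Nr1h2, an oxysterol receptor of lipid metabolism, had 12.9 and 7.07 per 1000, against 3.13 and 3.13 per 1000 in the other kept cells. Jag1, a Notch ligand, had 6.09 and 7.02 per 1000, against 1.77 and 3.25 per 1000. Gnai2, an inhibitory G protein subunit, had 23.7 and 32.6 per 1000, against 10.2 and 11.8 per 1000. Each was above the other kept cells in both embryos, and their edgeR adjusted p were 0.0566, 0.104 and 0.191. The log2 folds of Nr1h2, Jag1 and Gnai2 were 1.57, 1.41 and 1.34, and 0.76, 0.62 and 0.47 without the areas of low Gnas (edgeR adjusted p = 0.611, 0.611 and 0.734).

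Mfsd2a and Slc7a5 are best known from brain vessels, where they carry lysophospholipids with omega-3 fatty acids and large neutral amino acids. Mfsd2a had 5.42 and 3.36 per 1000 in Tubb2b/Fabp7 cells, against 1.79 and 1.08 per 1000, and Slc7a5 had 4.06 and 2.75, against 1.30 and 1.25 per 1000. Section 1 gives them 8 and 6 counts, with fold intervals of 1.28 to 6.16 and 1.12 to 7.10. Without the areas of low Gnas the log2 fold of Slc7a5 was 0.77, against 1.37 with them, and that of Mfsd2a 1.42, against 1.64. Of the 8 transporters on the list for brain vessels, 0 were called by edgeR (background 1.05% higher and 1.75% lower), and 3 had a positive log2 fold. Endothelial counts are limited by the rule itself, and Etv2, an early endothelial transcription factor and the 1 listed endothelial gene outside the rule, had 1 and 10 counts in the members.

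**Figure D2:**
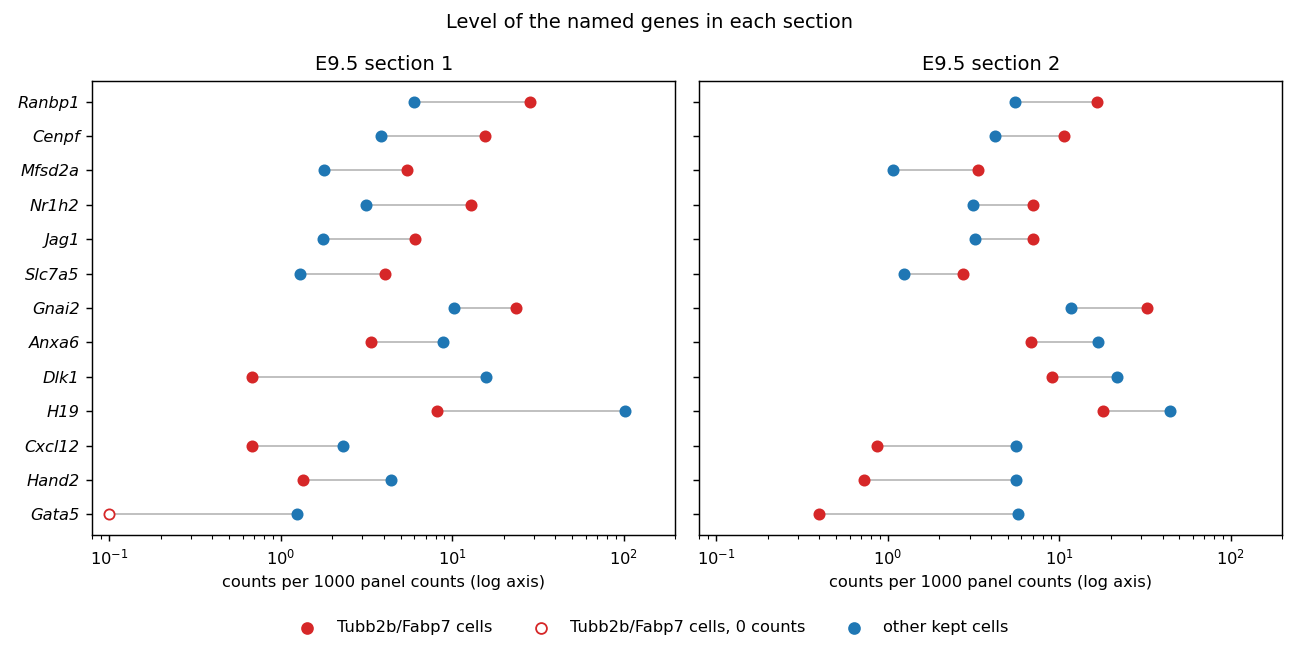
Level of 13 genes in Tubb2b/Fabp7 cells (red) and the other kept cells (blue), in counts per 1000 panel counts on a log axis, for E9.5 sections 1 and 2. An open circle is a gene with 0 counts, drawn at 0.1. Ranbp1 and Cenpf lie higher and Hand2, Dlk1 and H19 lower in Tubb2b/Fabp7 cells in both sections. Gata5 and Cxcl12 also lie lower, but in section 1 they have 0 and 1 of 1477 counts, so their difference rests on section 2.

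The genes lower in Tubb2b/Fabp7 cells were led by transcription factors of the heart. Gata5 had 0 and 0.399 per 1000, against 1.25 and 5.76 per 1000 in the other kept cells, a log2 fold of -3.71 ± 0.83 (SE; edgeR adjusted p = 0.00301). The section 1 level of Gata5 is too low for a fold there under the floor of 3 counts. Hand2 had 1.35 and 0.728 per 1000, against 4.38 and 5.57 per 1000, a log2 fold of -2.51 ± 0.64 (edgeR adjusted p = 0.0157). Gata4 was called lower at -2.87 ± 0.83 (edgeR adjusted p = 0.0309), with 0.540 against 8.69 per 1000 in section 2, but it ran the other way in section 1, with 2 of 1477 counts against 17 of 67095. All 3 tested heart genes were thus called lower, against 5 of all 286 tested genes (1.75%). Tbx20, a further heart gene, is a limit of the rule, so this count is not independent of how the members were chosen.

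The rule takes cells with 2 or more counts of Tbx20, 2 or more of Tcf15 or 3 or more of the endothelial genes out of the members and leaves them among the other kept cells. With these 3 limits dropped together the log2 fold was -0.65 for Gata5 and -0.94 for Hand2, both with an edgeR adjusted p of 0.825, and 0 genes were called (19 at an unadjusted p below 0.05). In that setting 7 of the 8 called genes kept their sign. The part of each limit on its own was not tested.

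Cxcl12, a chemokine that guides migrating cells, had 0.677 and 0.869 per 1000 in Tubb2b/Fabp7 cells, against 2.31 and 5.62 per 1000 in the other kept cells (log2 fold -2.39 ± 0.69, SE; edgeR adjusted p = 0.0309). The section 1 value is a single count. Dlk1, an imprinted membrane protein of embryonic mesoderm and endocrine tissue, had 0.677 and 9.04 per 1000, against 15.7 and 21.6 per 1000 (log2 fold -2.01 ± 0.59; edgeR adjusted p = 0.0325). Only 1 of 10 and 36 of 126 members held any Dlk1, and in section 2 the 10 members with the most held 83.1% of its counts.

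H19, an imprinted long non-coding RNA abundant before birth, was lower by size in both embryos at 8.12 and 17.9 per 1000, against 101 and 44.5 per 1000, and missed the edgeR threshold (log2 fold -2.34, adjusted p = 0.0566). Anxa6, a calcium-dependent membrane-binding protein, had 3.39 and 6.83 per 1000, against 8.85 and 16.8 per 1000 (edgeR adjusted p = 0.183). Outside the areas of low Gnas the H19 level of the other kept cells was 174 and 67.4 per 1000, so the gap was wider there. The log2 fold was then -3.24 for H19 and -1.93 for Anxa6, which stood at -1.29 with these areas. Dlk1 was the 1 gene called among 5 tested imprinted genes, against 1.75% called lower over all 286 tested genes.

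Of the genes of the early embryo, the retinoid pathway, progenitors and neurons, 0 were called against the other kept cells. Crabp1, which binds retinoic acid in the cytoplasm and is known from hindbrain and neural crest, had 14.9 and 48.9 per 1000, against 10.5 and 9.998 per 1000. The fold was 1.42 in section 1 (0.883 to 2.16) and 4.89 in section 2 (4.66 to 5.12), and edgeR gave a log2 fold of 1.46 with an adjusted p of 0.191. In section 2 the 10 members with the most Crabp1 held 55.5% of its 2081 counts. Stra6, a retinol receptor, had 3.39 and 3.01 per 1000, against 0.715 and 1.87 per 1000 (log2 fold 1.30, edgeR adjusted p = 0.320), and its log2 fold was 0.62 without the areas of low Gnas.

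Lin28a, an RNA-binding protein of undifferentiated cells, had 22.3 and 25.2 per 1000, against 10.7 and 18.7 per 1000 (log2 fold 0.71, edgeR adjusted p = 0.673). Prtg, a receptor of early neuroepithelium and mesoderm, had 46.7 and 37.7 per 1000, against 48.3 and 30.8 per 1000 (log2 fold 0.11, edgeR adjusted p = 0.947). Prtg was seen in 10 of 10 and 125 of 126 members. Without the areas of low Gnas the log2 fold was 0.19 for Lin28a and 0.45 for Prtg, and neither gene was called in either setting.

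Among progenitor genes, Vim, the intermediate filament vimentin, had 28.4 and 54.1 per 1000, against 39.6 and 38.3 per 1000, opposite in the 2 sections, and its log2 fold was 0.01, and -0.04 without the areas of low Gnas. Notch1 was opposite as well, with 14.9 and 19.2 per 1000, against 40.5 and 15.53 per 1000. Its log2 fold was -0.51, and 0.65 without the areas of low Gnas, so it turned direction (edgeR adjusted p = 0.750 and 0.684). The 4 progenitor genes summed to 46.0 and 76.7 per 1000 in Tubb2b/Fabp7 cells, against 81.9 and 56.2 per 1000, and to 46.0 and 78.0 without those areas, against 46.2 and 47.3 per 1000. Zic1, a transcription factor of the dorsal neural tube, had 2.71 and 3.12 per 1000, against 1.24 and 1.78 per 1000 (edgeR adjusted p = 0.549). Among neuron genes, Meis2 had 14.2 and 9.07 per 1000, against 6.44 and 7.94 per 1000 (log2 fold 0.62, edgeR adjusted p = 0.673). It turned direction too, with a log2 fold of -0.24 without the areas of low Gnas. Reln, Rgs4 and Tmem108 were not called in either setting, and the log2 fold of Tmem108 was -1.13 with those areas and -1.80 without them.

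With 1.05% of all tested genes called higher and 1.75% lower, a count of 0 in lists as short as the following says little about them. Mesenchyme genes summed to 6.77 and 5.80 per 1000 in Tubb2b/Fabp7 cells, against 14.02 and 11.7 per 1000, with 0 of 5 called, and to 6.77 and 5.595 without the areas of low Gnas, against 22.4 and 13.4 per 1000. Macrophage genes summed to 1.35 and 1.01 per 1000, against 4.74 and 2.12 per 1000, with 0 of 6 called, and 4 of the 6 had 0 counts in section 1. Without the areas of low Gnas the macrophage sum was 1.35 and 0.993 per 1000, against 2.02 and 1.20 per 1000. Mural genes summed to 6.77 and 12.9 per 1000, against 9.23 and 16.6 per 1000, with 0 of 7 called, and to 6.77 and 12.8 without those areas, against 5.80 and 18.9 per 1000, which turns section 1. Erythroid genes summed to 4.06 and 3.19 per 1000, against 4.07 and 3.63 per 1000, with 0 of 2 called, and to 4.06 and 3.22 without those areas, against 3.26 and 3.75 per 1000, which turns section 1 too. The 1 listed gene of neural crest and peripheral glia on the panel, Scn7a, had 2 and 5 counts in the members. Of the signalling lists, 0 of 5 Notch genes, 0 of 3 Wnt genes, 0 of 4 guidance genes, 0 of 2 IGF-binding proteins and 0 of 2 carbonic anhydrases were called. Cell-cycle exit had 0 of 4 called, and Cxcl12 was the 1 called gene of 3 vascular signals. In section 1 Notch genes summed to 27.1 per 1000, against 46.3 with the areas of low Gnas and 16.7 without them. Guidance genes summed to 16.2 there, against 22.5 and 13.9, and neuron genes to 16.9, against 13.97 and 21.04. In section 2 the transporters of the brain vessel list summed to 12.3 per 1000, against 13.1, and to 12.2 without those areas, against 11.8. These sums turn direction.

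Compared with Tcf15 cells, the kept cells with 2 or more counts of Tcf15 that pass the Tbx20 and endothelial limits, more genes stood apart. There were 18 such cells in section 1 and 292 in section 2, with 1889 and 59713 counts. Of 211 genes tested with edgeR in the same way, 12 were higher in Tubb2b/Fabp7 cells (5.69%) and 9 lower (4.27%). Tcf15 cells lay mostly in areas of low Gnas, 13 of 18 and 229 of 292. Without these areas 5 and 63 Tcf15 cells were left, with 682 and 14249 counts. In section 1 that is fewer cells than the plan asked for a test, so calls in this setting are weakly held. There 7 genes of 166 were higher (4.22%) and 3 lower (1.81%). Of the 21 genes, 7 were still called and all 21 kept their sign. The 21 genes were picked for description after their values were seen.

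Among the genes that held in both settings was Wnt4, a secreted Wnt ligand, with 20.3 and 4.13 per 1000 in Tubb2b/Fabp7 cells, against 1.06 and 1.04 per 1000 in Tcf15 cells. Its log2 fold was 2.47 ± 0.53 (SE; edgeR adjusted p = 1.70e-04). Without the areas of low Gnas, where section 1 held 5 Tcf15 cells, it was 4.42 ± 0.80 (edgeR adjusted p = 6.38e-06). Pltp, a phospholipid transfer protein, had 1.35 and 6.15 per 1000, against 0 and 0.938 per 1000 (log2 fold 2.81 ± 0.79; edgeR adjusted p = 0.00683). Tox2 had 1.35 and 11.3 per 1000, against 1.06 and 0.636 per 1000 (log2 fold 3.63 ± 0.68; edgeR adjusted p = 1.27e-05). Only Wnt4 of these 3 was high in both embryos.

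Vtn, the matrix protein vitronectin, and Ptx3, a secreted pentraxin, had 0 counts in the members of section 1. In section 2 they had 9.51 and 6.48 per 1000, against 0.536 and 0.201 per 1000 in Tcf15 cells, and their log2 folds of 4.16 and 4.56 (edgeR adjusted p = 6.42e-06 and 1.78e-04) rest on that section. A single cell held 129 of the 276 counts of Ptx3, and a single cell held 84 of the 405 counts of Vtn.

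On the lower side, Cxcl12 had 0.677 and 0.869 per 1000, against 10.1 and 13.1 per 1000 in Tcf15 cells (log2 fold -3.98 ± 0.59, SE; edgeR adjusted p = 4.30e-08). Foxd1, a forkhead transcription factor of kidney stroma, had 1.35 and 0.892 per 1000, against 2.12 and 8.17 per 1000 (log2 fold -2.83 ± 0.65; edgeR adjusted p = 4.60e-04). Both were called without the areas of low Gnas too. Pdgfrb, a growth factor receptor of mesenchyme and mural cells, had 0 and 1.13 per 1000, against 7.41 and 9.86 per 1000. Its log2 fold was -3.45 ± 0.58 (edgeR adjusted p = 1.59e-06), and -2.71 without those areas, with an adjusted p of 0.0777.

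Jag1, Nr1h2, Gnai2, Crabp1, Cenpf and Ranbp1 were also called higher than in Tcf15 cells, and were not called without the areas of low Gnas. The log2 fold of Ranbp1 was 1.62 with these areas and 0.30 without them, that of Cenpf 1.91 and 0.63, and that of Gnai2 2.22 and 0.82. The plot of these genes shows these 3 shrinking most among the higher ones. The genes that were lower and lost their call were Pdgfrb, Asb4, Cdkn1a, Heyl, Cdk1, Sparcl1 and Gpc3. Of the 10 mitosis genes tested against Tcf15 cells, 4 had a positive log2 fold, with a median of -0.51. Over all 211 genes, 101 were positive and the median was -0.15.

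**Figure D3:**
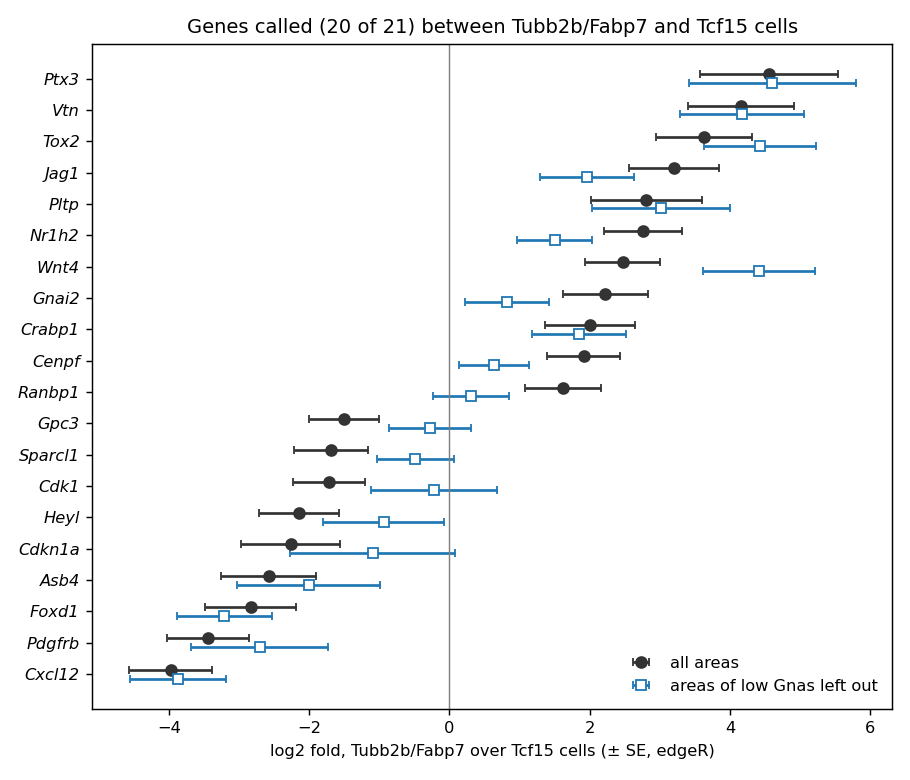
Log2 fold of Tubb2b/Fabp7 cells over Tcf15 cells for 20 of the 21 genes called by edgeR, with 1 standard error either side, over all areas (filled circles) and without areas of low Gnas (open squares). Wnt4, Tox2, Pltp, Vtn, Ptx3, Foxd1 and Cxcl12 are called in both settings, while Ranbp1, Cenpf and Gnai2 lie at 0.30, 0.63 and 0.82 without those areas. Section 1 holds 5 Tcf15 cells without those areas.

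The Tubb2b/Fabp7 cells of section 2 were not alike, and their patches held different genes. The patches come from 1 embryo and their cells are not replicates, so what follows is a description with no test. Intervals are exact, by Clopper-Pearson for levels and for a ratio of Poisson counts for folds. Fabp7 was seen in 19 of 26, 18 of 25 and 13 of 18 cells of patches 1, 2 and 3, but in 2 of 11 cells of patch 4 and 11 of 46 outside any patch. Its level was 5.11, 3.51 and 5.74 per 1000 in patches 1, 2 and 3, 0.275 in patch 4 and 0.725 in cells of no patch. Tubb2b varied less, between 4.40 in patch 4 and 8.15 in patch 2. In that sense patches 1, 2 and 3 hold both genes of the gate, and the rest hold mainly Tubb2b. Both genes chose the cells, so a member without Fabp7 has at least 2 counts of Tubb2b by the rule. These values only describe which gate gene let the cells in.

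Patch 1 had Crabp1 at 103 per 1000 (95.7 to 111), against 9.998 per 1000 in the other kept cells of the section. By fold over the other members of section 2 it was led by Heyl, a Notch target (6.81, interval 3.73 to 12.5), and Reln, a secreted protein that guides neurons (4.09). A single cell held 15 of the 36 Reln counts of patch 1. Jag1 stood at 14.5 per 1000 in patch 1 (11.7 to 17.8), against 3.25 per 1000 in the other kept cells. Patch 3 also had a high Crabp1 level, at 66.5 per 1000 (59.1 to 74.5), though 1 cell held 116 of its 278 counts there. It was led by Zic1 at 9.57 per 1000 (fold 3.95, interval 2.66 to 5.78), Wnt4 at 11 per 1000 (fold 3.25) and Notch1 at 37.8 per 1000 (fold 2.20). The 3 cells with the most Zic1 held 70.0% of its 40 counts in patch 3.

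Patch 2 differed from both. Crabp1 stood at 11.8 per 1000 (9.42 to 14.6), while Stra6 stood at 11.4 (9.05 to 14.1) and was seen in 88.0% of its cells. Stra6 was 8.58-fold above the other members (5.92 to 12.6). The genes next in order were Chst1, a sulfotransferase (4.70-fold), Arl4a, a small GTPase (4.68-fold), Car14, a membrane carbonic anhydrase (4.54-fold), and Pcdh18, a protocadherin (4.02-fold). Patch 2 also had the most Ranbp1, Cenpf and Gnai2 among the patches, at 33.4, 16.01 and 53.2 per 1000, and Cenpf and Ranbp1 were seen in all 25 of its cells.

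By the same fold patch 4 was led by Ptx3 at 32.9 per 1000, 31.4-fold above the other members (22.1 to 45.6). Patch 4 cells had a median of 550 counts, against 205.5, 296 and 147.5 in patches 1, 2 and 3. The part of depth in the patch differences was not tested. A single one of its 11 cells held 129 of the 239 Ptx3 counts, the median cell held 3, and the other 10 cells held 110 together. Next came Igfbp3 (8.50-fold), Sparcl1 (7.73-fold), Flrt2 (7.42-fold) and Vtn at 31.6 per 1000 (6.38-fold). Flrt2 was seen in 5 of the 11 cells and Igfbp3 in 7. The 3 cells with the most held 88.5% of the 26 Flrt2 counts and 76.2% of the 21 Igfbp3 counts. Sparcl1 was seen in 11 of 11 cells and Vtn in 10, with 84 of the 230 Vtn counts in 1 cell. The patch held 239 of the 276 counts of Ptx3 and 230 of the 405 counts of Vtn found in the members of section 2. Tox2 stood at 34.6 per 1000 there, with 89 of 252 counts in 1 cell, against 3.83 or less in patches 1, 2 and 3. Crabp1 was at 0.962 per 1000, below the 9.998 of the other kept cells.

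The 46 cells outside any patch had levels of H19 and Dlk1, 2 of the 5 imprinted genes on the panel, near those of the other kept cells. H19 stood at 34.8 per 1000 in them and at 5.44, 3.23, 1.91 and 10.2 in patches 1 to 4, against 44.5 in the other kept cells. Dlk1 stood at 20.6 per 1000 in them, with 0.989, 0.140, 1.44 and 0.275 in patches 1 to 4, against 21.6 in the other kept cells. Only 24 of the 46 cells held any Dlk1, and the 3 with the most held 59.7% of its 370 counts. Cdkn1c stood at 11.9 per 1000 in cells of no patch, with 5.28, 3.09, 4.07 and 10.9 in patches 1 to 4, against 15.7 in the other kept cells. Asb4 stood at 1.45 per 1000 in cells of no patch, with 0.660, 0.140, 0.478 and 1.92 in patches 1 to 4, against 4.35. Gnas stood at 37.0 per 1000 in cells of no patch, with 53.6, 44.2, 56.4 and 45.4 in patches 1 to 4, against 19.4. The Dlk1 level of the cells of no patch was 33.9-fold above that of the patches (20.3 to 61.1), Hand2 was 13.3-fold above, Htra1 11.8-fold, and Acta2 10.3-fold. These are few cells as well, since Hand2 and Htra1 were each seen in 9 of the 46, Gata4 in 6 and Acta2 in 3. Gata4 was at least 10.5-fold above, with 23 counts in them and 0 in the patches, taking a floor of 3 counts over all patches. H19 was read at 0 counts in 18 of 26, 16 of 25 and 15 of 18 cells of patches 1, 2 and 3, in 0 of 11 cells of patch 4 and in 8 of the 46 others.

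Some genes were at like levels in all patches. Prtg ran between 34.1 and 51.7 per 1000 and Lin28a between 18.8 and 26.1 over patches 1 to 4. Nr1h2 ran between 5.36 and 9.55 per 1000, above the 3.13 of the other kept cells in each patch.

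**Figure D4:**
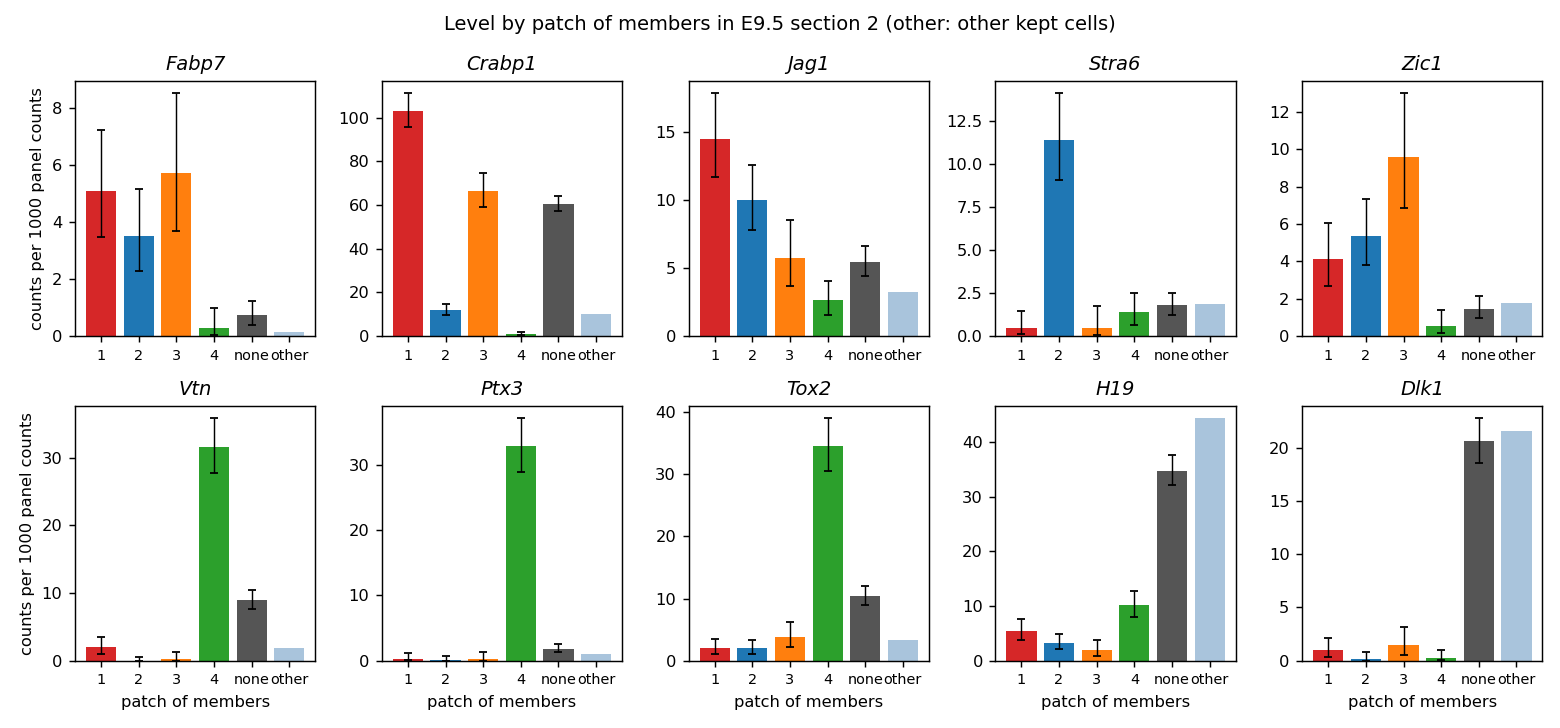
Level of 10 genes in E9.5 section 2, in counts per 1000 panel counts. Bars are patches 1 to 4 of Tubb2b/Fabp7 cells, those of no patch (none) and the other kept cells (other). The bars for members carry exact Clopper-Pearson 95% intervals. Crabp1 is 103 and 66.5 per 1000 in patches 1 and 3, Stra6 is 11.4 in patch 2, Vtn and Ptx3 are 31.6 and 32.9 in patch 4, and H19 and Dlk1 are lowest in patches 1 to 3 or 1 to 4.

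Levels also went with the count of gate genes. Among cells of section 2 that pass the limits on the other genes, 4467 had 0 counts of Tubb2b and Fabp7, 391 had 1, 75 had 2 and 51 had 3 or more. Over these 4 steps Crabp1 was 12.5, 22.5, 36.7 and 63.0 per 1000, Gnai2 9.30, 19.1, 29.9 and 35.7, Ranbp1 5.41, 10.3, 13.4 and 20.2, and Cenpf 3.64, 6.79, 8.21 and 13.6. Each was higher at every step. H19 was 33.3, 49.7, 28.4 and 5.64 per 1000 and Dlk1 23.1, 20.1, 12.3 and 5.28. H19 was low in cells with 3 or more counts, while Dlk1 was lower at each step. The median depth of the cells was 96, 170, 232 and 296 counts over the same steps, and its part in these values was not tested.

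Members with both gate genes stood apart from those with Tubb2b alone. Crabp1 was 77.8 per 1000 in the 55 cells with both and 30.1 in the 63 with Tubb2b alone. H19 was 5.29 per 1000 in cells with both and 27.6 with Tubb2b alone, Dlk1 1.86 and 14.7, and Vtn 2.89 and 13.3.

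**Figure D5:**
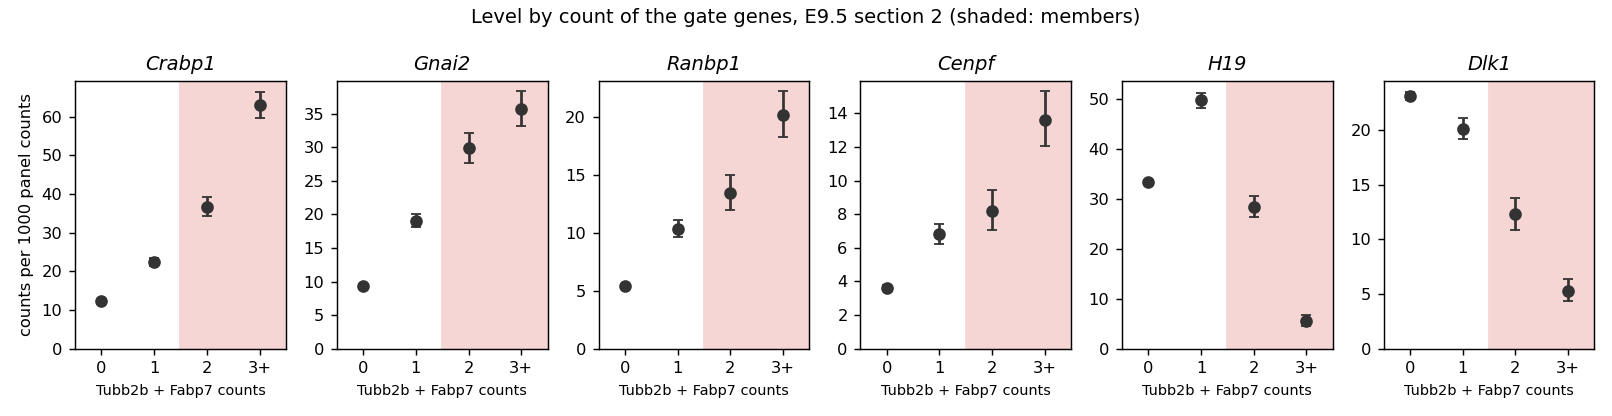
Level of 6 genes in cells of E9.5 section 2 with 0, 1, 2 or at least 3 counts of Tubb2b and Fabp7. The cells pass the limits on the other genes. Levels are in counts per 1000 panel counts with exact Clopper-Pearson 95% intervals. Shading marks members. Crabp1 climbs over the steps and reaches 63.0 per 1000, and H19 is at 5.64 and Dlk1 at 5.28 per 1000 in cells with 3 or more counts.

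In Crabp1, Gnai2 and Dlk1, cells beside the members ran the same way as the members although they missed the gate. In section 2, 110 other kept cells had 3 or more members among their 10 nearest cells, 494 had 1 or 2 and 5604 had none. Crabp1 was 61.7 per 1000 in the first of these sets, 18.6 in the second and 8.10 in the third. Gnai2 was 26.5, 20.8 and 10.5, and Dlk1 was 1.70, 20.9 and 22.0 per 1000. The 110 cells had a median of 110 counts, against 123 in cells with no member beside them and 261.5 in the members. Whether these are cells of the same kind that the gate missed, or counts that crossed drawn cell borders, cannot be told apart here.

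The gate applied to the single E15.5 section took 39873 of 195915 kept cells, 20.4% (exact interval 20.2 to 20.5%). There Stmn2 stood at 102 per 1000, Tubb2b at 56.3, Fabp7 at 10.8, Scn3a at 5.43 and Reln at 11.8. Lin28a stood at 0.329, Prtg at 0.550 and Crabp1 at 3.76 per 1000. These 3 were lower, and Stmn2, Scn3a and Reln higher, than in the members of either E9.5 section. The stages differ in embryo, section and number of cells, and with 1 section at E15.5 no test was made.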

How the data were processed

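MERFISH counts came from the MERSCOPE platform, which also imaged, segmented and decoded, per the labels. The authors deposited raw counts of 296 panel genes and 19 blank codes per segmented cell, not normalized. Per the file headers, a second table holds each cell's centre, volume and stain intensity of DAPI and PolyT summed over the cell. The headers name no unit for positions and volumes, read here as micrometres and cubic micrometres, as MERSCOPE writes them. Scanpy and Seurat are named in the submitters' processing notes, without version. The settings of segmentation and decoding are not given in the labels or headers.

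Raw counts were summed per section and kind of cell and fitted with edgeR 4.0.16 (TMM, quasi-likelihood, R 4.3.3) for genes that reached 30 counts over the 4 sums. The 9 rule genes stayed in library sizes and out of tests. The section was a block because both sums come from the same embryo, so the pairing is set by the design. The 2 sections are from separate embryos. DESeq2 1.42.0 was an alternative. Fits were tested on simulated data. No doublet caller was run, since cells come from segmentation; an alternative drops cells over 3 times the median volume.

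Genes were named by rule: the rule genes; up to 10 called genes each way with the same direction in both sections, filled from genes 2-fold apart in both; panel genes of the early embryo, neuron, progenitor and retinoid lists; and up to 3 genes of other lists. The members, lists and the areas of low Gnas were chosen with earlier results of these data known. Some genes that these rules name or count are not reported here.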

Additional observations from a re-analysis of the deposited data

How the results depend on the processing

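With the section as a block, edgeR called 3 genes higher and 5 lower than in the other kept cells, and 12 and 9 against Tcf15 cells. With no replicate block these numbers were 0 and 0 (22 genes at an unadjusted p below 0.05), and 9 and 2. Against the other kept cells, the higher and lower counts were 0 and 2 at 20 or more counts per cell, 1 and 3 without cells of large volume, 2 and 1 among cells of 50 to 300 counts, and 8 and 11 with DESeq2. They were 0 and 0 with upper-quartile scaling (30 at an unadjusted p below 0.05), with library size alone (32), with no Tcf15, Tbx20 and endothelial limits (19) and with areas of low Gnas left out (24). All 8 called genes kept their sign in each of these settings, except 1 with no limits. Against Tcf15 cells, the counts were 7 and 3 with areas of low Gnas left out, which left 5 Tcf15 cells in section 1. They were 6 and 2 with DESeq2, and 4 lower with library size alone. By size in both sections, 8 higher became 4 with areas of low Gnas left out and 4 lower became 0 with no limits. Leaving out either section gave 29 to 39 higher and 16 to 64 lower, and 1 section allows no test. The share of Tubb2b/Fabp7 cells in sections 1 and 2 was 0% and 0.805% with a gate of at least 3, and 2.58% and 3.52% with areas of low Gnas left out. It was 2.79% in section 2 with no limits. The edgeR fits with a gate of at least 3 were not run, since section 1 then has 0 members. The 29 named genes with a fitted value gave 283 values under alternatives, of which 0 turned sign while called. They hold 7 of the 8 called genes. Gata4, which ran opposite ways in the 2 sections and turned with no limits, is not among them. The causes were not tested. Section 1, with 10 members and 1477 counts, limits what holds in both embryos.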
